A study of Mus musculus with 16 samples.

Results

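The genes described here are the 3 TGF-beta ligands (*Tgfb1*, *Tgfb2* and *Tgfb3*), the 3 TGF-beta receptors (*Tgfbr1*, *Tgfbr2* and *Tgfbr3*) and the 4 latent TGF-beta binding proteins, or LTBPs (*Ltbp1*, *Ltbp2*, *Ltbp3* and *Ltbp4*). They were chosen by name, and all 10 were found among the 55492 genes of the table. RNA was sequenced from the left ventricles of 16 male C57BL/6 mice that were 8 to 12 weeks old, with rRNA removed before the libraries were made. PKM2-/- mice lack exon 10 of *Pkm*, and so the M2 form of the glycolytic enzyme pyruvate kinase, in every tissue. They descend from PKM2fl/fl mice crossed with a CMV-Cre line, and the Cre allele was then bred out. The controls were PKM2fl/fl mice, which carry the floxed allele without Cre. Since the deletion is germline and global, a difference between genotypes is not assigned to any 1 cell type of the heart. Each genotype was studied at baseline with no operation (n = 2 mice), 3 days after a sham operation (n = 3) and 3 days after myocardial infarction (MI) by permanent ligation of the left anterior descending coronary artery (n = 3). The labels give the tissue as the left ventricle and do not say how much of the infarct each sample held.

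TGF-beta is made as a precursor whose cleaved propeptide stays wrapped around the growth factor and keeps it silent. Most cells secrete this latent complex bound to an LTBP, which tethers it to fibrillin and fibronectin in the matrix until integrins, proteases or thrombospondin release the ligand. LTBP2 is the exception in the family, as it is a fibrillin-binding matrix protein that does not bind latent TGF-beta. Free ligand binds the type II receptor TGFBR2, which phosphorylates the type I receptor TGFBR1, and TGFBR1 phosphorylates SMAD2 and SMAD3. The type III receptor TGFBR3, or betaglycan, presents ligand to the other receptors and is required for high-affinity binding of TGF-beta2 in particular. In the infarcted heart the pathway is known for its part in turning off inflammation, in converting fibroblasts to myofibroblasts and in scar formation.

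Promoter sequences from RefSeq (GRCm38.p6, the same assembly as mm10) were found for 8 of the 10 genes. Those of the ligand *Tgfb1* and of a pair of LTBPs are shown, because these LTBPs moved very differently after MI. Each stretch begins 250 bases before the transcription start of the RefSeq promoter entry. It ends before RefSeq's span of the gene and before any bases found in a GENCODE M39 transcript of it (matched over 20 bases). Capitals mark matches, on either strand, to the SMAD box CAGAC, the AP-1 site TGANTCA, the TATA box TATAAA, the GC box GGGCGG and the CCAAT box CCAAT.
*Tgfb1*, chr7:25686752-25686964, forward strand: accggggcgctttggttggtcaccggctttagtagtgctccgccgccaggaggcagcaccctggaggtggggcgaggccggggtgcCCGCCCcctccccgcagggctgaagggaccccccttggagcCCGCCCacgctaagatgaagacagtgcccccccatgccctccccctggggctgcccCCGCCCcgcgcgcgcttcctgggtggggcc
*Ltbp1*, chr17:75005279-75005479, forward strand: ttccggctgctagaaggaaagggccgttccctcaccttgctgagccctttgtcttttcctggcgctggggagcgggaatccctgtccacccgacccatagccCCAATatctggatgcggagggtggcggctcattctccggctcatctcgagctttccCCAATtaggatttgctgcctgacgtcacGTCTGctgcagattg
*Ltbp2*, chr12:84876559-84876741, reverse strand: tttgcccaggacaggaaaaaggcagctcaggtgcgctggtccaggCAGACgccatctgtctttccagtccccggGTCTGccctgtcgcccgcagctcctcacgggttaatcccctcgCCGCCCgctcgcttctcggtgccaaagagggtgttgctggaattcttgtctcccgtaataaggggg

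The *Tgfb1* stretch was the richest in G and C (74.6%, against a mean of 52.7% over all 32851 promoters in the same window). It held 3 GC boxes, a motif found in 27.4% of all promoters over that window, and 0 SMAD boxes. The *Ltbp2* stretch held 2 SMAD boxes, which 33.6% of all promoters held at least once over its window, and 1 GC box (21.5% of promoters). The *Ltbp1* stretch held 1 SMAD box and 2 CCAAT boxes (28.6% of promoters held a CCAAT box). The AP-1 and TATA letters had 0 matches in the 3 stretches, against 4.99% to 5.92% and 8.49% to 9.67% of promoters over the same windows. These matches describe letters only and were set against no binding data.

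Between 20623769 and 71855101 reads per library were assigned to genes, and the 10 genes had from 106 to 14232 reads in a library. The values below are normalized read counts, in which the authors divided each library's reads by its DESeq2 size factor. Loci related to rRNA took up to 46.1% of reads. At baseline their share separated the genotypes (17.4% and 22.2% in PKM2fl/fl, 39.8% and 43.9% in PKM2-/-), so genotype and rRNA share cannot be told apart there. The first principal component, with 65.9% of the variance, set the 6 MI libraries apart from the other 10. The table counts *Pkm* as a whole gene and so does not check the loss of exon 10. Fold changes are from limma on log2(value + 1) over 20576 genes whose mean normalized count was 10 or more, and a gene was called at a Benjamini-Hochberg adjusted p under 0.05. No label says how the mice were distributed over litters, operators or days.

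To find which parts of the TGF-beta system respond to infarction, MI was compared with sham within each genotype. In PKM2fl/fl hearts 8 of the 10 genes were called, 7 higher and 1 lower, where 50.1% of all tested genes were called (24.8% higher, 25.3% lower). In PKM2-/- hearts all 10 were called, 7 higher and 3 lower, against 56.8% of all tested genes (28.7% higher, 28.1% lower). All 3 ligands, the signalling receptors *Tgfbr1* and *Tgfbr2*, *Ltbp2* and *Ltbp3* rose in both genotypes, and *Tgfbr3* fell in both. The median log2 fold change of the 10 was 0.91 in PKM2fl/fl and 0.74 in PKM2-/- hearts, while that of all tested genes was -0.00 and 0.01. Of the 10, 5 in PKM2fl/fl and 4 in PKM2-/- hearts were called with at least a 2-fold change, against 23.5% and 28.8% of all tested genes. Sham and MI libraries did not overlap for 7 of the 10 in PKM2fl/fl and 9 of the 10 in PKM2-/- hearts, against 59.0% and 62.3% of all tested genes.

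**Figure D1:**
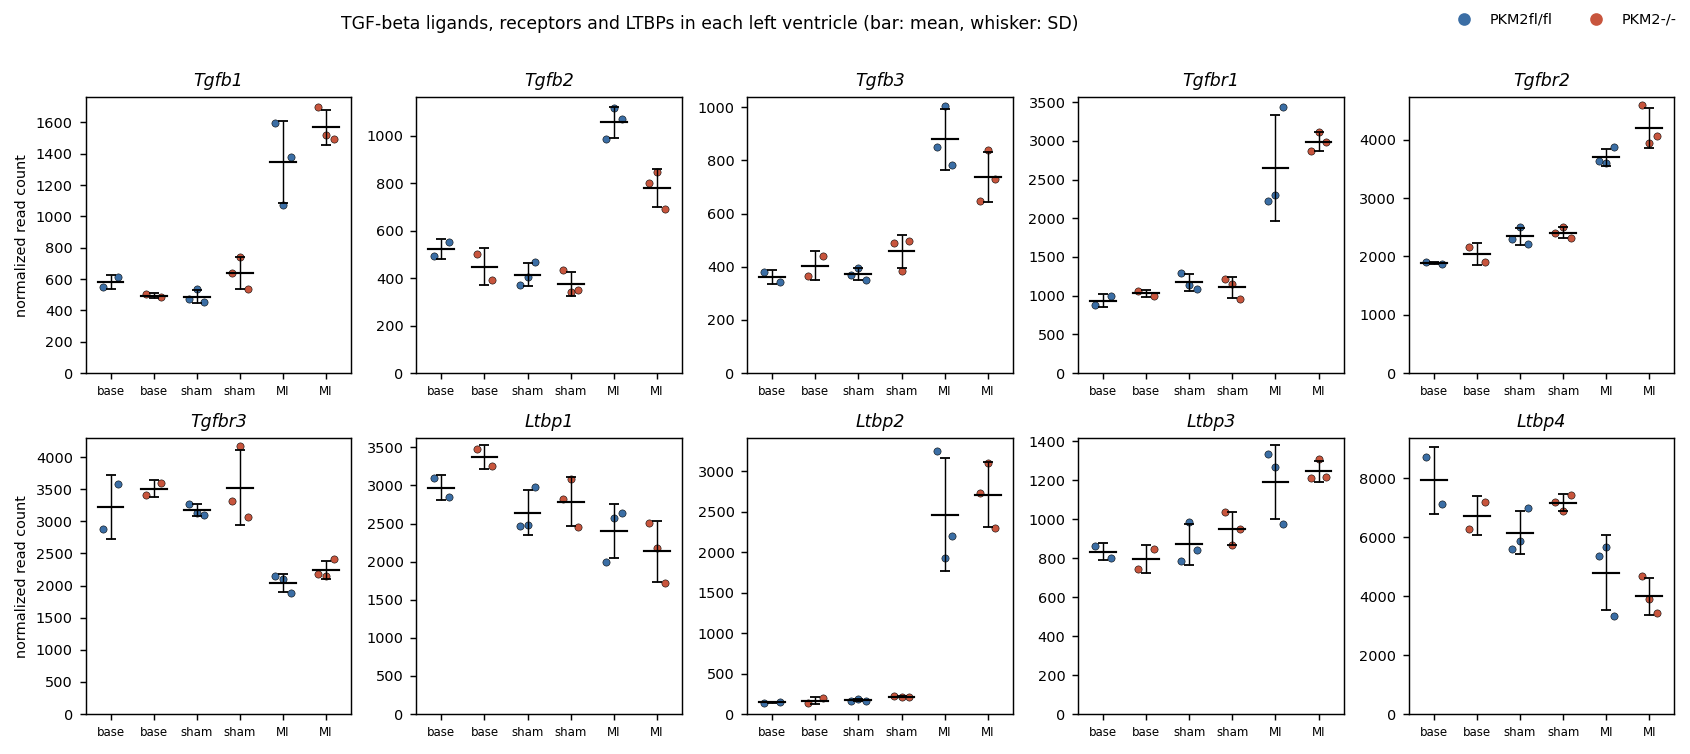
Normalized read counts (y axis, linear, from 0) of the 10 genes in each of the 16 libraries, by treatment (x axis) and genotype (blue PKM2fl/fl, red PKM2-/-). Points are mice, bars are means and whiskers are SD. *Ltbp2* lay between 135 and 223 in the 10 uninfarcted hearts and between 1933 and 3255 in the 6 infarcted hearts.

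The cell make-up of these ventricles differed between sham and MI in the same comparisons. Of 8 cardiomyocyte markers, 7 were called lower in PKM2fl/fl and 8 in PKM2-/- hearts. Their summed normalized count was 1261961 to 1420147 after sham and 273503 to 582128 after MI in PKM2fl/fl hearts, and 1112372 to 1393303 and 257208 to 341016 in PKM2-/- hearts. All 7 macrophage and monocyte markers were called higher in both genotypes, with sums of 4635 to 9137 and 19661 to 35048 in PKM2fl/fl and 6007 to 7783 and 25842 to 30272 in PKM2-/- hearts. Of 6 fibroblast markers, 3 were called higher and 2 lower in each genotype. No cardiomyocyte, macrophage or fibroblast marker was at 0 in a whole group. The myofibroblast marker *Cthrc1* was at 0 in every baseline and sham library. However, its mean over all libraries was only 0.273 normalized counts, too low to be tested, so its counts are not read as a change after MI. The part of these shifts in the TGF-beta results was not tested, and in whole ventricle fewer cells of a type and less RNA per cell cannot be told apart.

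*Tgfb1*, the most widely expressed of the ligands and the one tied most closely to fibrosis, had 472, 536 and 455 normalized counts in PKM2fl/fl sham hearts and 1594, 1074 and 1378 after MI. PKM2-/- hearts had 641, 740.5 and 534 after sham and 1698, 1518 and 1495 after MI. Every infarcted heart was above every sham heart in both genotypes. The log2 fold change was 1.45 (SE 0.14, adjusted p = 1.52e-06, limma) in PKM2fl/fl and 1.31 (SE 0.14, adjusted p = 2.41e-06) in PKM2-/- hearts, or 2.73-fold and 2.47-fold.

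*Tgfb2*, the ligand that depends most on betaglycan, had 370.1, 405 and 468 normalized counts in PKM2fl/fl sham hearts and 986, 1116 and 1070.0 after MI. Among PKM2-/- hearts the sham values were 432, 342 and 352 and the MI values 799, 846 and 691. Sham and MI did not overlap in either genotype. This was a log2 fold change of 1.35 (SE 0.13, adjusted p = 1.45e-06, limma) in PKM2fl/fl and 1.05 (SE 0.13, adjusted p = 8.11e-06) in PKM2-/- hearts.

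*Tgfb3*, the third ligand of the family, had 369, 396 and 349.5 normalized counts in PKM2fl/fl sham hearts and 849, 1004 and 783 after MI. The PKM2-/- values were 489, 385 and 498 after sham and 648, 837 and 729 after MI. The groups did not overlap in either genotype. On the log2 scale the fold change was 1.23 (SE 0.14, adjusted p = 4.57e-06, limma) in PKM2fl/fl and 0.69 (SE 0.14, adjusted p = 0.00048) in PKM2-/- hearts.

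Among the receptors, *Tgfbr1*, the kinase that phosphorylates SMAD2 and SMAD3, had 1298, 1134 and 1085 normalized counts in PKM2fl/fl sham hearts and 2219.8, 2299 and 3436 after MI. The PKM2-/- values were 1209, 1156 and 953 after sham and 2868, 3121 and 2983 after MI. The groups were separate in both genotypes, and 1 PKM2fl/fl MI heart stood well above the other two. MI exceeded sham by a log2 fold change of 1.15 (SE 0.14, adjusted p = 1.38e-05, limma) in PKM2fl/fl and 1.44 (SE 0.14, adjusted p = 1.26e-06) in PKM2-/- hearts.

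*Tgfbr2*, the ligand-binding kinase, rose by less. It had 2302, 2504 and 2219 normalized counts after sham and 3634, 3596 and 3869 after MI in PKM2fl/fl hearts, and 2408, 2506 and 2309.7 after sham and 4592, 3947 and 4057 after MI in PKM2-/- hearts. Sham and MI did not overlap in either genotype. Its log2 fold change was 0.66 (SE 0.09, adjusted p = 2.25e-05, limma) and 0.80 (SE 0.09, adjusted p = 2.73e-06), respectively. In PKM2fl/fl hearts the call on *Tgfbr2* was lost when libraries were scaled to their total counts (0.48, adjusted p = 0.239).

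*Tgfbr3*, or betaglycan, went the other way. PKM2fl/fl sham hearts had 3276, 3137 and 3098 normalized counts, and PKM2fl/fl MI hearts had 2146, 2097 and 1880.3. PKM2-/- hearts had 3315, 4180.4 and 3076 after sham and 2177, 2144 and 2409 after MI. Every MI heart was below every sham heart. Its log2 fold change was -0.64 in both genotypes (SE 0.12, adjusted p = 0.000313 in PKM2fl/fl and 0.000226 in PKM2-/-, limma). With total count scaling the fall in PKM2-/- hearts was no longer called (-0.13, adjusted p = 0.756, limma). That scaling shifts all genes of a comparison by about the same amount, and it moved the median of all tested genes to 0.52.

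The LTBPs split. *Ltbp2*, the matrix member that does not carry latent ligand, had 166, 183 and 164 normalized counts in PKM2fl/fl sham hearts and 3255, 1933 and 2203 after MI. PKM2-/- hearts had 223, 205 and 216 after sham and 2735, 3103 and 2298 after MI. No value after sham came near a value after MI. The rise was 14.0-fold in PKM2fl/fl (log2 fold change 3.81, SE 0.18, adjusted p = 6.34e-09, limma) and 12.5-fold in PKM2-/- hearts (3.64, SE 0.18, adjusted p = 7.22e-09).

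*Ltbp4*, which with *Ltbp1* and *Ltbp3* carries latent TGF-beta, had 5587, 5874 and 6977 normalized counts in PKM2fl/fl sham hearts and 5361, 5664 and 3336 after MI. The PKM2-/- hearts had 7186, 6876 and 7437 after sham and 4674, 3886 and 3428 after MI. The PKM2fl/fl groups overlapped, whereas the PKM2-/- groups did not. On the log2 scale the difference was -0.39 in PKM2fl/fl (SE 0.18, adjusted p = 0.0767, limma) and -0.85 in PKM2-/- hearts (SE 0.18, adjusted p = 0.000704). Without the first or the second PKM2fl/fl MI library the PKM2fl/fl value was called (-0.49 and -0.53, adjusted p = 0.0495 and 0.0264). With total count scaling the PKM2-/- value was not (-0.34, adjusted p = 0.410).

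*Ltbp1* had 2463, 2483 and 2984 normalized counts after sham and 1994, 2568 and 2639 after MI in PKM2fl/fl hearts, and 2826, 3087 and 2455 after sham and 2512, 2178 and 1715 after MI in PKM2-/- hearts. Sham and MI overlapped in both genotypes. The log2 fold change was -0.14 (SE 0.14, adjusted p = 0.428, limma) in PKM2fl/fl, with a 95% interval of -0.45 to 0.16. It was -0.40 in PKM2-/- hearts (SE 0.14, adjusted p = 0.0284), and this call rested on few libraries. It was lost without PKM2-/- sham replicate 1 (adjusted p = 0.0685, limma), sham replicate 2 (0.108) or MI replicate 3 (0.164). Total count scaling, which moved the median of all tested genes to 0.52, turned the value to 0.12 (adjusted p = 0.787, limma).

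*Ltbp3* had 784, 986 and 842 normalized counts after sham and 1332, 1269.9 and 976 after MI in PKM2fl/fl hearts, and 1039, 867 and 948 after sham and 1214, 1308 and 1216 after MI in PKM2-/- hearts. The PKM2fl/fl groups overlapped by 1 heart on each side and the PKM2-/- groups did not overlap. Its log2 fold change was 0.45 (SE 0.12, adjusted p = 0.00697, limma) and 0.39 (SE 0.12, adjusted p = 0.0133). The PKM2-/- call was lost without PKM2-/- sham replicate 2 (adjusted p = 0.0574), and the PKM2fl/fl call was lost with total count scaling (0.27, adjusted p = 0.556).

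**Figure D2:**
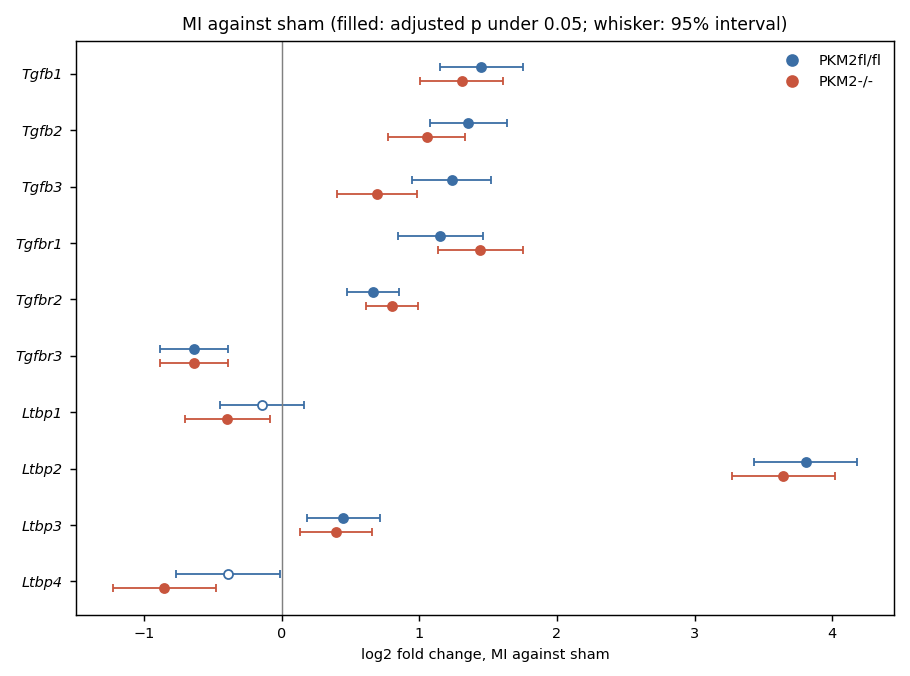
Log2 fold change of MI against sham (x axis) for each gene in PKM2fl/fl (blue) and PKM2-/- (red) hearts with 95% intervals, where filled points were called at an adjusted p under 0.05. *Ltbp2* lay at 3.81 and 3.64, *Tgfbr3* at -0.64 in both genotypes, and with total count scaling the PKM2-/- value of *Ltbp1* turned from -0.40 to 0.12.

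Divided by exon length (GENCODE M39), levels can be set side by side between genes. In PKM2fl/fl sham hearts *Ltbp4* was highest with 815 ± 97.4 normalized counts per kilobase (SD, n = 3), followed by *Tgfbr3* with 463 ± 13.7 and *Tgfbr2* with 266 ± 16.7. *Ltbp1* (246 ± 27.5), *Tgfbr1* (177 ± 16.8), *Tgfb1* (96.0 ± 8.34), *Ltbp3* (92.8 ± 11.1), *Tgfb3* (71.3 ± 4.50) and *Tgfb2* (66.2 ± 7.93) followed in that order, and *Ltbp2* was lowest with 20.9 ± 1.24. Neighbours in this order did not overlap, except for *Tgfbr2* and *Ltbp1*, *Tgfb1* and *Ltbp3*, and *Tgfb3* and *Tgfb2*. After MI in PKM2fl/fl hearts *Ltbp2* had moved from rank 10 to rank 4, with 301 ± 85.4 per kilobase, and overlapped its neighbours *Tgfbr1* and *Tgfbr3*. *Ltbp4* was still first with 635 ± 168 per kilobase. In PKM2-/- MI hearts *Ltbp4* (530.1 ± 83.6) overlapped *Tgfbr2* (478 ± 39.2), and *Ltbp2* was again at rank 4 with 331 ± 49.2.

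Because a share within a library does not depend on how libraries are scaled, the make-up of each family was also followed per kilobase, as a description chosen after the values were seen. *Ltbp2* made up 1.09% to 2.02% of the summed LTBP level in the 10 uninfarcted hearts and 17.3% to 30.7% in the 6 infarcted hearts. Over the same hearts *Ltbp4* went from between 66.4% and 74.5% to between 41.7% and 55.2%. The summed LTBP level itself overlapped between sham and MI (1074 to 1313 against 1062 to 1437 per kilobase in PKM2fl/fl, 1317 to 1355 against 1025 to 1318 in PKM2-/-).

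The receptor make-up shifted as well. *Tgfbr3* made up 50.1% to 59.0% of the summed receptor level before infarction and 22.3% to 29.5% after it, and *Tgfbr1* went from 16.3% to 20.9% up to 31.6% to 42.1%. Thus there were 0.276 to 0.396 normalized counts of *Tgfbr1* for each of *Tgfbr3* in uninfarcted hearts and 1.03 to 1.83 in infarcted hearts. The summed ligand level per kilobase was 223 to 246 after sham and 582 to 634 after MI in PKM2fl/fl, and 257 to 289 and 544 to 594 in PKM2-/- hearts.

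**Figure D3:**
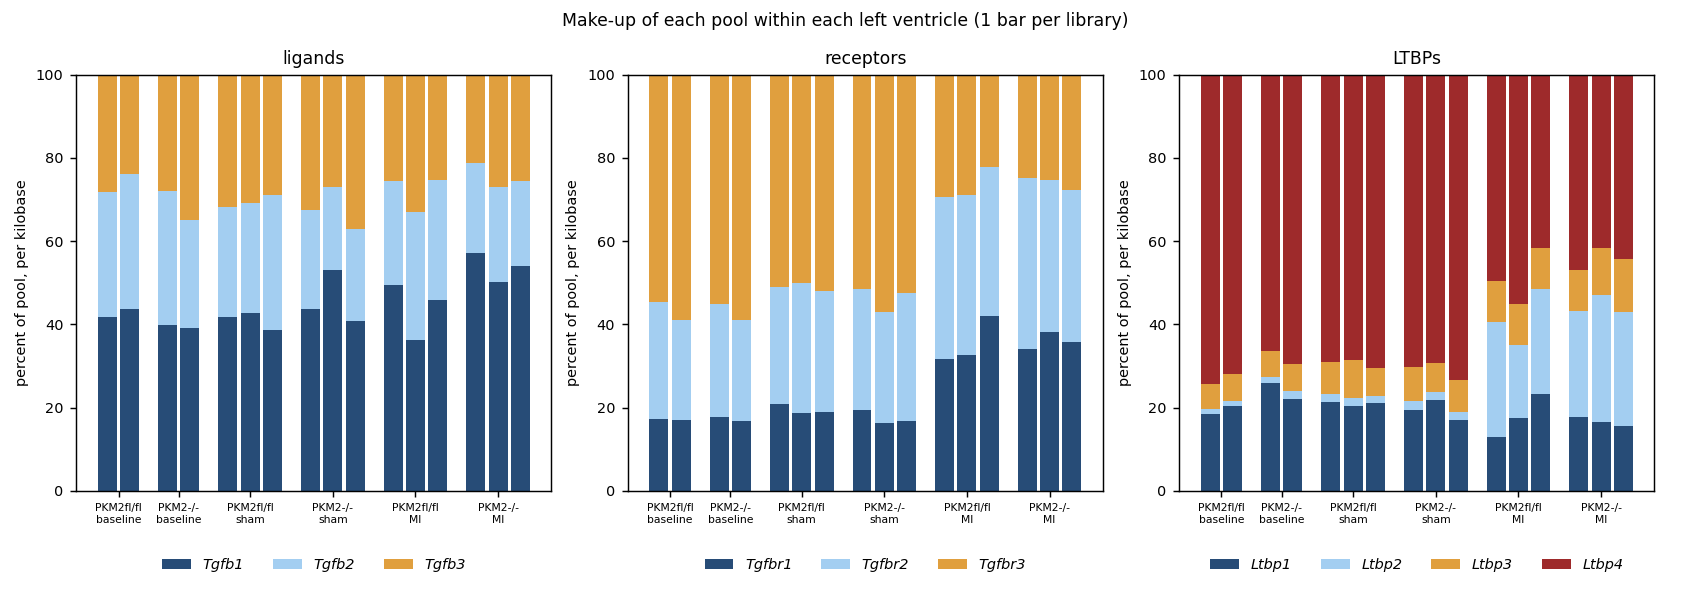
Share of each gene in the summed per-kilobase level of its family (y axis, percent) with 1 bar per library, grouped by genotype and treatment (x axis). *Ltbp2* widened from at most 2.02% to at least 17.3% of the LTBPs, and *Tgfbr3* narrowed from at least 50.1% to at most 29.5% of the receptors, in infarcted hearts of both genotypes.

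The question of whether PKM2 loss alters these genes was addressed by comparing PKM2-/- with PKM2fl/fl hearts at each treatment. None of the 10 genes was called at baseline, after sham or after MI, where 0.00972%, 0.00972% and 0.967% of all tested genes were called by limma. At an unadjusted p under 0.05 the counts were 0, 2 and 1 of the 10, against 3.64%, 9.95% and 17.0% of all tested genes. edgeR called 0 of the 10 at each treatment, where it called 1, 2 and 146 of all 20576 genes. DESeq2 called 0, 0 and 1 of the 10, where it called 17 of 21439, 273 of 19883 and 1033 of 18329 tested genes. With the authors' size factors, the 95% intervals of the 30 differences reached from -0.72 to 0.70 on the log2 scale (limma). Thus 2-fold differences lay outside all of them in that fit, while 8 of the 30 reached past a 1.5-fold difference. Among the alternatives that kept every library, the baseline values of *Tgfb1*, *Tgfb2* and *Ltbp4* went as low as -0.82, and intervals for these are not given.

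The gene nearest to a call was *Tgfb2* after MI. Its values of 799, 846 and 691 in PKM2-/- hearts were all below the 986, 1116 and 1070.0 in PKM2fl/fl hearts (779 ± 79.5 against 1057 ± 65.6, SD, n = 3), one of 2 genes of the 10 whose groups did not overlap, where 18.9% of all tested genes did not. The log2 fold change was -0.44 (SE 0.13, 95% interval -0.72 to -0.16, adjusted p = 0.104, limma). With DESeq2 it was -0.44 with an adjusted p of 0.0352 and was called. Over the alternatives that kept every library the *Tgfb2* value ranged from -0.45 to -0.077. The other gene was *Tgfbr2*, which was higher in PKM2-/- hearts (0.18, SE 0.09, adjusted p = 0.316, limma). In the same comparison 0 markers of any cell type were called, but some summed marker counts did not overlap between PKM2fl/fl and PKM2-/- MI hearts. Those of 5 neutrophil markers were 1198 to 2159 and 3395 to 4384 (median log2 fold change 1.60). Those of 4 platelet markers were 1116 to 1665 and 2004 to 3194 (0.77), and those of 4 myofibroblast markers were 20768 to 22174 and 15387 to 19527 (-0.37). The cardiomyocyte sums given above overlapped, with a median of -0.52 over 8 markers. The part of these marker levels in the values of the 10 genes was not tested.

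After sham, *Tgfb1* had 641, 740.5 and 534 normalized counts in PKM2-/- and 472, 536 and 455 in PKM2fl/fl hearts. The ranges met at 534 and 536. The log2 fold change was 0.38 (SE 0.14, 95% interval 0.08 to 0.68, adjusted p = 0.37, limma). *Tgfb3* differed by 0.29 (SE 0.14, adjusted p = 0.498, limma), and *Ltbp2* was the only 1 of the 10 whose sham groups did not overlap (0.33, SE 0.18, adjusted p = 0.581, limma), where 16.5% of all tested genes did not.

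At baseline the 10 differences ran from -0.23 to 0.18, and all adjusted p were 1 (limma). The groups of 2 did not overlap for 4 of the 10 genes (*Tgfb1* lower, and *Tgfbr1*, *Tgfbr2* and *Ltbp1* higher in PKM2-/- hearts), near the 34.9% of all tested genes. Total count scaling moved the median of all tested genes to -0.59 at baseline, -0.33 after sham and 0.36 after MI. With it 6 of the 10 genes changed sign at baseline, 6 after sham and 3 after MI, none of them called. After MI the PKM2fl/fl replicate 3 mattered most. Without it *Tgfbr1* (0.40, adjusted p = 0.0295, limma) and *Ltbp4* (-0.48, adjusted p = 0.0355, limma) were called, while the number of all tested genes called rose from 199 to 2271.

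**Figure D4:**
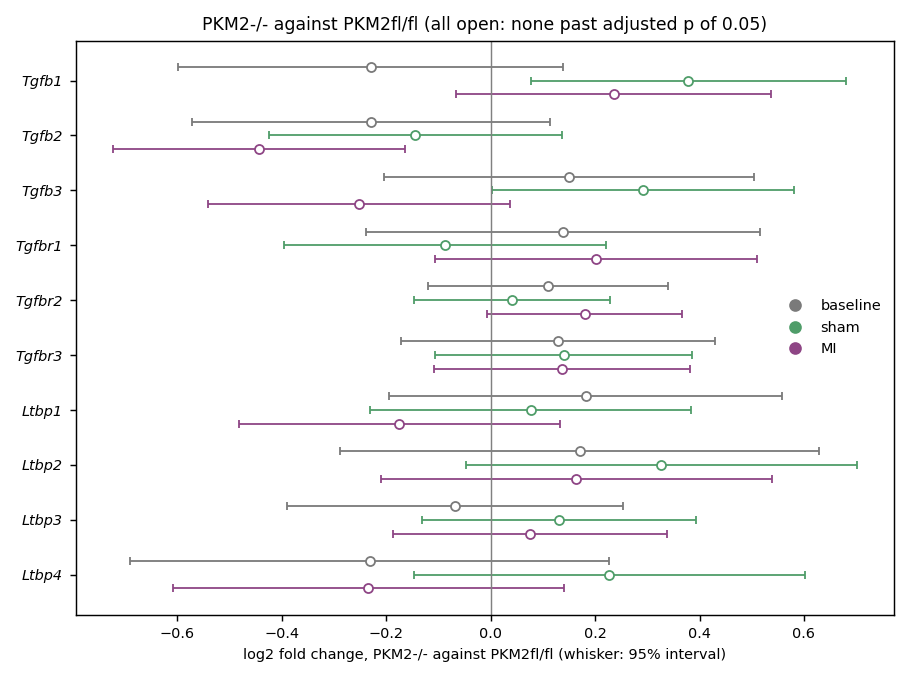
Log2 fold change of PKM2-/- against PKM2fl/fl hearts (x axis) for each gene at baseline (grey), after sham (green) and after MI (purple) with 95% intervals, where open points were not called. All 30 values were open, *Tgfb2* after MI lay lowest at -0.44, and with total count scaling 15 of the 30 changed sign.

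Whether the response to MI differed between genotypes was tested by the interaction. No gene of the 10 was called, and 0% of all 20576 genes were (limma; 8.28% had an unadjusted p under 0.05, edgeR called 0 and DESeq2 52). The widest gap was in *Tgfb3*, which rose by 1.23 in PKM2fl/fl and by 0.69 in PKM2-/- hearts, a difference of -0.54 (SE 0.19, 95% interval -0.95 to -0.13, unadjusted p = 0.0127, adjusted p = 0.512, limma). *Ltbp4* followed with -0.46 (SE 0.25, adjusted p = 0.659, limma) and *Tgfb2* with -0.30 (SE 0.19, adjusted p = 0.701). *Tgfbr3* had the smallest difference, -0.00 (SE 0.16, 95% interval -0.35 to 0.34). With total count scaling, which moved the median of all tested genes to 0.67, 8 of the 10 differences changed sign, and that of *Tgfb3* became 0.15 (adjusted p = 0.806).

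Within the ligand family, *Tgfb2* made up 24.9% to 30.6% of the summed per-kilobase level in PKM2fl/fl MI hearts and 20.3% to 22.7% in PKM2-/- MI hearts. After sham the shares were 26.3% to 32.3% and 19.9% to 23.9%, and at baseline 30.2% to 32.2% and 25.9% to 32.2%. The genotypes were thus apart after each operation and overlapped at baseline. These shares were chosen after the values were seen and were not tested.

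The sham operation was compared with baseline to see what surgery alone was accompanied by. None of the 10 genes was called in either genotype by limma, edgeR or DESeq2, against 0.190% of all tested genes in PKM2fl/fl and 5.14% in PKM2-/- hearts, and 2 of the 10 in each genotype had an unadjusted p under 0.05, against 8.81% and 18.9% of all tested genes. Groups did not overlap for 6 of the 10 in PKM2fl/fl and 5 of the 10 in PKM2-/- hearts, against 32.5% and 34.5%. Summed markers of neutrophils and of macrophages and monocytes were higher after sham in the same hearts. The sums of 5 neutrophil markers were 78 to 183 at baseline and 216 to 1276 after sham in PKM2fl/fl (median log2 fold change 3.04, 0 of 5 called), and 117 to 167 and 966 to 1227 in PKM2-/- hearts (3.41, 5 of 5 called). The medians of 7 macrophage and monocyte markers were 1.01 in both genotypes (0 and 1 of 7 called). Those of 4 platelet markers were 0.71 in PKM2fl/fl and 0.60 in PKM2-/- hearts (0 called). Lymphocyte markers went the other way, with medians of -1.30 and -0.14 (3 tested, 0 called). Erythroid markers had medians of -0.09 and 0.26 (3 tested, 0 called). Smooth muscle and pericyte markers had medians of -0.41 and -0.45 (0 and 2 of 5 called, lower), and fibroblast markers 0.28 and 0.42 (0 and 1 of 6 called). Atrial markers had medians of 3.96 and 1.32 (3 tested, 0 called). The adipocyte marker tested had 1.62 and 3.00 and was called in PKM2-/- hearts. For cardiomyocyte, endothelial and myofibroblast markers 0 were called. The part of these marker levels in the values of the 10 genes was not tested. *Tgfbr2* was 1898 and 1872 at baseline and 2302, 2504 and 2219 after sham in PKM2fl/fl hearts (0.31, SE 0.10, adjusted p = 0.261, limma). In the PKM2-/- group it was 2169 and 1906 at baseline and 2408, 2506 and 2309.7 after sham (0.24, SE 0.10, adjusted p = 0.183). All sham hearts were above all baseline hearts in both genotypes for this gene and for *Ltbp2*. A test of whether the sham effect differed between genotypes, added after the values were seen, called none of the 10 and 0% of all tested genes, and 6.29% had an unadjusted p under 0.05 (limma).

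Other genes of the pathway were followed in 3 lists, beside which 50.1% of all tested genes were called after MI in PKM2fl/fl (24.8% higher, 25.3% lower) and 56.8% in PKM2-/- hearts (28.7% higher, 28.1% lower). Of 17 anchors and activators of latent TGF-beta, 14 were called higher and 1 lower after MI in each genotype, with a median log2 fold change of 1.66 in PKM2fl/fl and 1.72 in PKM2-/- hearts. *Mmp14*, a membrane-bound matrix protease, rose from 447 ± 88.6 to 3189 ± 279 normalized counts in PKM2fl/fl hearts (SD, n = 3; log2 fold change 2.85, adjusted p = 6.65e-09, limma). *Fbn1*, the fibrillin that anchors LTBPs, rose by 2.09 and 2.08 on the log2 scale in PKM2fl/fl and PKM2-/- hearts. *Itgav*, the integrin alpha chain shared by the TGF-beta-activating integrins, rose by 1.66 and 1.72, and *Emilin1*, a matrix glycoprotein that restrains processing of the TGF-beta precursor, by 1.98 and 2.22.

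The 1 that fell was *Itgb6*, the beta chain of an activating integrin of epithelia, by 1.27 in PKM2fl/fl and 1.62 in PKM2-/- hearts (adjusted p = 0.00225 and 0.000251, limma). It was also the only gene of this list called between genotypes after MI (516 ± 201 normalized counts in PKM2fl/fl and 205 ± 73.6 in PKM2-/-, SD, n = 3; log2 fold change -1.33, SE 0.30, adjusted p = 0.0488, limma). That call was lost under edgeR (-1.35, adjusted p = 0.0503), under 6 other settings that kept all libraries of the comparison, and when any of 5 of the 6 MI libraries was left out. The fold change under those settings stayed between -1.35 and -0.96, and between -1.50 and -0.98 without those libraries. *Itgb6* was lower in PKM2-/- hearts after sham too, with 498 to 759 normalized counts against 909 to 1433 in PKM2fl/fl hearts. That difference was not called, and the sham groups of 16.5% of all tested genes did not overlap. At baseline *Itgb6* overlapped between the genotypes (1430 to 1593 normalized counts in PKM2fl/fl, 1345 to 1565 in PKM2-/-).

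Of 18 genes of SMAD signalling and its brakes, 9 were called higher and 2 lower in PKM2fl/fl, and 5 higher and 5 lower in PKM2-/- hearts, with medians of 0.25 and 0.04. In all, 11 and 10 of the 18 were called, against the 50.1% and 56.8% of all tested genes given above. *Pmepa1*, a target of the pathway that also restrains it, rose by 1.27 and 1.02 on the log2 scale. *Skil*, a SMAD corepressor, rose by 0.88 and 0.66, and *Smad3*, the receptor-activated SMAD, by 0.66 and 0.38. *Ski*, the corepressor related to *Skil*, rose by 0.44 in PKM2fl/fl hearts (adjusted p = 0.000435, limma) and differed by 0.13 in PKM2-/- hearts (adjusted p = 0.188). In PKM2fl/fl hearts the calls on *Skil*, *Smad3* and *Ski* were lost with total count scaling, and in PKM2-/- hearts that on *Smad3* was lost without MI replicate 3.

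*Bambi*, a decoy receptor that lacks a kinase, was the only gene of the SMAD list called between genotypes after MI (271 ± 19.4 normalized counts in PKM2fl/fl and 156 ± 29.2 in PKM2-/-, SD, n = 3; log2 fold change -0.81, SE 0.16, adjusted p = 0.0341, limma). The settings that ended the call included total count scaling (-0.45, adjusted p = 0.455, limma) and a fit of only the libraries compared (-0.81, adjusted p = 0.184, limma). Leaving out any of 5 of the 6 MI libraries also ended it (-0.89 to -0.65). After sham *Bambi* had 226 to 296 normalized counts in PKM2fl/fl and 209 to 225 in PKM2-/- hearts, which did not overlap and was not called. At baseline its ranges overlapped and the PKM2-/- mean was the higher one (195 to 261 in PKM2fl/fl, 249 to 275 in PKM2-/-).

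Of 22 textbook target genes, 21 were tested, and 18 were called higher and 1 lower after MI in each genotype, with medians of 2.45 in PKM2fl/fl and 2.68 in PKM2-/- hearts, where 24.8% and 28.7% of all tested genes were called higher. *Ltbp2* is itself in this list, and *Pmepa1*, *Skil* and *Smad7* are also in the SMAD list. *Postn*, *Acta2* and *Cthrc1* are also among the myofibroblast markers, and *Col1a1* is also a fibroblast marker. *Fn1*, the matrix protein fibronectin, rose from 2777 ± 1212 to 45958 ± 15991 normalized counts in PKM2fl/fl hearts (SD, n = 3; log2 fold change 4.08, adjusted p = 6.88e-08, limma). *Lox*, which crosslinks collagen, rose by 3.69 and 3.78, and *Postn*, the myofibroblast matrix protein periostin, by 3.82 and 3.59. *Id1*, a target of BMP signalling that TGF-beta can repress, fell by 0.60 and 0.46 and was named after its values were seen. No target gene was called between genotypes at baseline, after sham or after MI, and 0 were called in the interaction.

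**Figure D5:**
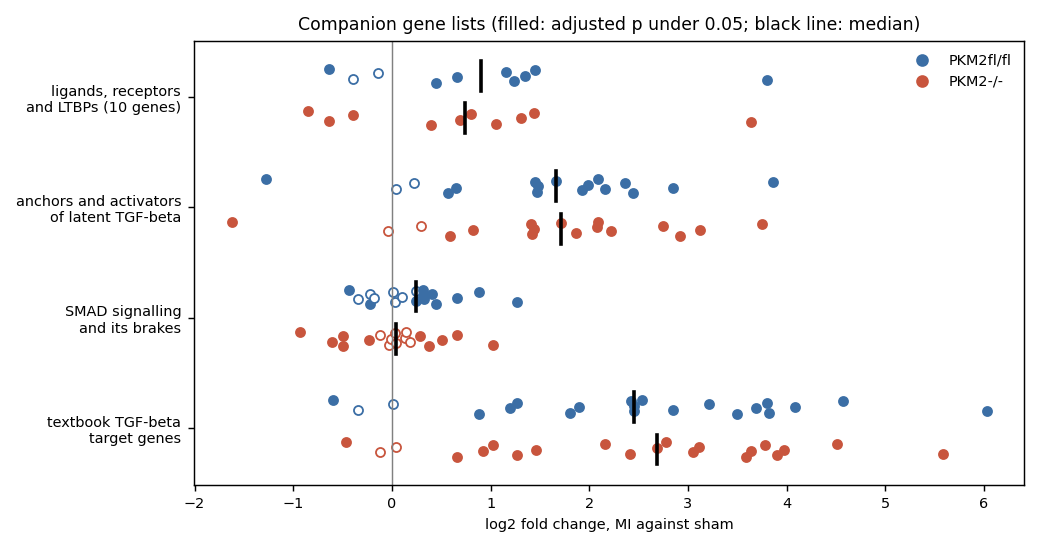
Log2 fold change of MI against sham (x axis) for the 10 genes and the 3 companion lists in PKM2fl/fl (blue) and PKM2-/- (red) hearts, where filled points were called and black lines are medians. The targets had medians of 2.45 and 2.68 and the SMAD genes of 0.25 and 0.04, and total count scaling shifts all points by about -0.18 in PKM2fl/fl and 0.52 in PKM2-/- hearts.

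For each of the 10, the tested genes of most similar pattern were found by the root mean square difference of log2(value + 1), centred on each gene's mean, over the 16 libraries. *Tgfb1* was followed most closely by *Coro1c* (0.0867) and *Rhoc* (0.131), and *Tgfbr1* by *Ptbp3* (0.114) and *Pip4k2a* (0.125). *Tgfbr2* lay nearest to *Arrb1* (0.0919) and *Adap2* (0.0982), and *Tgfbr3* to *Trappc9* (0.0922) and *Slc49a4* (0.104). *Tgfb3* lay nearest to *Igf1* (0.153) and *Taok3* (0.160), and *Tgfb2* to *Zfp41* (0.177) and *Nckap5l* (0.184). *Ltbp2* lay nearest to *Serpinb1a* (0.331) and *Pclaf* (0.343). Its own SD on this scale was 1.88, whereas that of the others ran from 0.26 (*Ltbp1*) to 0.71 (*Tgfb1*). The distances were not scaled to these spreads, so they do not rank how closely the different genes were matched. The nearest genes were *Cdkal1* (0.127) and *Chn1* (0.128) for *Ltbp1*, *Plekho1* and *Lima1* (0.105 each) for *Ltbp3*, and *Mapk8ip3* (0.114) and *Gm13394* (0.118) for *Ltbp4*. Among the 10 themselves the nearest pair was *Tgfbr2* and *Ltbp3* (0.245), followed by *Tgfb1* and *Tgfbr1* (0.257). All of these distances share the same 16 libraries.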

How the data were processed

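Left ventricular RNA of 16 mice was sequenced, with groups taken from the sample labels. Quality control (FastQC), trimming (PRINSEQ), alignment to mm10 (HISAT2) and gene-level counting (featureCounts) were done by the authors, and versions and the strand setting are not given in the sources used here. The deposited signal holds their read counts after DESeq2 scaling by size factors. The authors' columns of their own baseline comparison (mean, log2 fold change with its error, Wald score, p-value and adjusted p) were not used. Dividing by each library's step recovered whole reads for 100% of values (within 0.05 read), and 0 columns were left without a sample.

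Log2(value + 1) of genes with a mean of at least 10 was fitted by limma 3.58.1 (trend, R 4.3.3) over all 16 libraries in 6 groups, with Benjamini-Hochberg adjustment and a threshold of 0.05. Nothing in the labels says that mice of a group came from separate litters, so p-values measure the spread between these mice. The fold changes are on the log2(value + 1) scale, which understates the change of low genes. In simulated data for MI against sham in PKM2fl/fl hearts (20576 genes, 200 changed), limma recovered 45% of 2-fold and 91% of 4-fold changes with 2 false calls. In the data 50.1% of tested genes were called in that comparison, far more than were changed in the simulation. These rates therefore do not give the recovery or false calls of the MI comparison itself. The alternatives were edgeR 4.0.16 and DESeq2 1.42.0 on the recovered reads, total count and TMM scaling, pseudocounts of 0.1 and 10, and no filter. Further ones were only the libraries compared, the replicate number as a block, the log2(value + 1) of a major rRNA locus as a covariate, and each library left out.

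The genes and lists were chosen with earlier results of these data known. Named companion genes are the 4 of each list with the smallest p for MI against sham in PKM2fl/fl hearts, and any called between genotypes or in the interaction. For each of the 10 genes the 2 nearest in pattern are named. Coordinates and promoters are RefSeq's on GRCm38.p6, and exon lengths are unions of GENCODE M39 exons. Figures were drawn with matplotlib 3.10.9.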

Additional observations from a re-analysis of the deposited data

Results flagged for a closer look

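After sham, *Tgfb1* values lay on opposite sides of baseline in the 2 genotypes. In PKM2fl/fl hearts it was 551 and 611 normalized counts at baseline and 472, 536 and 455 after sham, every sham heart below every baseline heart (log2 fold change -0.25, SE 0.16, adjusted p = 0.759, limma). In PKM2-/- hearts it was 506 and 484 at baseline and 641, 740.5 and 534 after sham, every sham heart above (0.36, SE 0.16, adjusted p = 0.235, limma). The difference, 0.61 (SE 0.22, 95% interval 0.13 to 1.08), was tested by an interaction term chosen after seeing the data and had an unadjusted p of 0.0158 and an adjusted p of 0.666 (limma), so it was not called. It rests on 2 baseline hearts per genotype, and rRNA share separated the genotypes both at baseline and after sham. No group held more than 3 hearts, so single hearts were not examined as outliers.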

How the results depend on the processing

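All values here are log2 fold changes unless called counts. For the 10 genes, the alternatives that kept every library changed the sign of 33 values, none of them called under the alternative, and gained or lost a call without a change of sign for 5. Leaving out a library did so for 24 and 8. The number of the 10 called was 6 to 8 for MI against sham in PKM2fl/fl (8 to 9 with a library left out) and 7 to 10 in PKM2-/- hearts (8 to 10). It was 0 for each other comparison under every alternative, except between genotypes after MI, where DESeq2 called 1 (*Tgfb2*) and leaving out 1 library gave 0 to 2, the 2 without PKM2fl/fl MI replicate 3.

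Total count scaling accounted for most changes of sign. It turned *Ltbp1* to 0.12 for MI against sham in PKM2-/- hearts. Between genotypes at baseline it turned *Tgfb3* to -0.44, *Tgfbr1* to -0.45, *Tgfbr2* to -0.48, *Tgfbr3* to -0.46, *Ltbp1* to -0.41 and *Ltbp2* to -0.42. After sham it turned *Tgfb3* to -0.031, *Tgfbr2* to -0.28, *Tgfbr3* to -0.18, *Ltbp1* to -0.25, *Ltbp3* to -0.19 and *Ltbp4* to -0.10, and after MI *Tgfb3* to 0.11, *Ltbp1* to 0.19 and *Ltbp4* to 0.13. In the genotype by MI interaction it gave 0.55 for *Tgfb1*, 0.39 for *Tgfb2*, 0.15 for *Tgfb3*, 0.69 for *Tgfbr3*, 0.44 for *Ltbp1*, 0.52 for *Ltbp2*, 0.63 for *Ltbp3* and 0.23 for *Ltbp4*. For sham against baseline it gave -0.016 for *Tgfb3* in PKM2fl/fl and 0.21 for *Tgfbr3* in PKM2-/- hearts. *Bambi* turned to -0.15 (PKM2fl/fl) and 0.017 (PKM2-/-) for MI against sham. This scaling also shifted the median of all tested genes, and the cause of that shift was not tested.

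With the rRNA locus as a covariate, *Ltbp1* was 0.053 for MI against sham in PKM2fl/fl hearts, and *Ltbp3* and *Ltbp4* were 0.070 and 0.024 between genotypes at baseline. TMM scaling gave 0.034 for *Tgfbr3* in the interaction, and DESeq2 0.0066 for *Tgfbr3* from baseline to sham in PKM2-/- hearts.

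With libraries left out in turn, the genotype difference at baseline ranged from -0.028 to 0.29 for *Tgfbr3*, -0.090 to 0.43 for *Ltbp2* and -0.16 to 0.023 for *Ltbp3*. After sham *Tgfbr1* ranged from -0.16 to 0.016, and after MI *Ltbp3* from -0.063 to 0.16. The interaction ranged from -0.10 to 0.13 for *Tgfbr3*, -0.32 to 0.056 for *Ltbp2* and -0.19 to 0.031 for *Ltbp3*. From baseline to sham, PKM2fl/fl values ranged from -0.040 to 0.11 for *Tgfb3*, -0.17 to 0.14 for *Tgfbr3* and -0.037 to 0.13 for *Ltbp3*, and PKM2-/- values from -0.14 to 0.086 for *Tgfbr3* and -0.0046 to 0.19 for *Ltbp4*. *Bambi* ranged from -0.088 to 0.10 for MI against sham in PKM2fl/fl hearts.

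Replicate numbers were shared between groups but only 1 of 36 same-numbered pairs correlated above 0.1 (median -0.0266), and 3 of 16 libraries correlated best with their own number, so they were not taken as pairs. With the replicate number as a block, 8 and 10 of the 10 were called for MI against sham and 0 elsewhere, and *Tgfbr3* was 0.012 and 0.023 from baseline to sham. Between genotypes after MI the calls on *Bambi* (-0.81, adjusted p = 0.0614) and *Itgb6* (-1.33, adjusted p = 0.0747) were lost, and the count of all tested genes called went from 199 to 75.

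Counts over all tested genes moved more. With every library kept they were 0 to 48 between genotypes at baseline (2 as reported), 0 to 273 after sham (2) and 6 to 1033 after MI (199), 0 to 54 in the interaction (0), 3 to 356 and 586 to 1427 from baseline to sham (39 and 1058), and 6001 to 10857 for MI against sham in PKM2fl/fl hearts (10299). With 1 library left out they were 0 to 40, 0 to 89, 11 to 2271, 0 to 484, and 7 to 282 and 317 to 980 in the same order up to sham against baseline.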
